A study of Mus musculus with 79 samples.

Results

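The genes described here encode the subunits of the proteasome. They were taken by symbol, as every gene named Psma, Psmb, Psmc or Psmd followed by a number, other than the immunoproteasome genes Psmb8 and Psmb9. In all, 35 such genes were listed among the 14253 genes of the RORA comparisons, and the same 35 among the 12952 genes of the PER2 comparisons. By role, 7 encode the alpha ring of the 20S core particle, 3 its catalytic beta subunits, 4 its structural beta subunits and 1 (Psmb10) an immunoproteasome subunit. Of the 19S regulatory particle, 6 are ATPases of the base, 3 are other base subunits, 8 are lid subunits and 3 are assembly chaperones.

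The proteasome degrades proteins tagged with ubiquitin. The 20S core is a barrel of stacked rings: the outer alpha rings gate the entrance, and the inner beta rings carry the proteolytic sites. The 19S particle caps the barrel; its lid removes ubiquitin chains, and its base binds, unfolds and threads substrates into the core. In skeletal muscle this system breaks down much of the myofibrillar protein, and its subunit genes are commonly induced together during wasting. The subunits assemble in fixed proportions.

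Mouse muscle was sampled for RNA sequencing every 4 h over a day, at zeitgeber time (ZT, counted from lights on) 0, 4, 8, 12, 16 and 20. The RORA set had 18 libraries of a muscle-specific knockout (MKO) of Rora, which encodes the nuclear receptor RORα, and 18 control (CTRL) libraries labelled wild type. The PER2 set had 24 MKO libraries for the clock repressor gene Per2 and 19 CTRL libraries, also labelled wild type. Each genotype had 3 or 4 libraries at each ZT, and the 2 sets had separate controls. The sources used here do not give the Cre driver, which muscle was taken, the age or sex of the mice, or whether each library came from a separate animal, so p-values measure the spread between libraries. All values rest on the authors' comparisons of MKO with CTRL at each ZT, with no depth known for any library. The tissue label fits its markers: 12 of 12 skeletal muscle genes were listed, with mean normalized counts in the RORA set from 19636 for Myh2 to 792710 for Myh4. In bulk muscle, fewer cells of a type and less RNA per cell cannot be told apart.

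Each targeted gene was looked at before the subunit genes. In the authors' deposited tables Rora stood between -1.96 (ZT8) and -1.51 (ZT4) on the log2 scale in RORA MKO and was called at each of the 6 ZT, where a call is a deposited adjusted p under 0.05. The PER2 tables do not say which genotype is over which. Per2 itself had a positive deposited log2 fold change at 5 of the 6 ZT, with a mean of 0.37 ± 0.29 (SD over the 6 ZT). PER2 values are therefore given by sign alone.

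In RORA MKO, 1 proteasome gene stood apart from the rest. Psmd8, which encodes a subunit of the 19S lid (yeast Rpn12), fell to 37.2% of its control level, with a mean log2 fold change of -1.42 ± 0.07 (SD, n = 6 ZT). The other 34 subunit genes had means between -0.06 (Psma6) and 0.12 (Psma5). In the authors' deposited tables Psmd8 stood at -1.50, -1.50, -1.41, -1.38, -1.31 and -1.45 in the order ZT0 to ZT20, each with a deposited error of 0.04. Its level in MKO was thus between 35.4% (ZT0) and 40.4% (ZT16) of control at every time of day sampled. The largest size among the other 34 genes at any ZT was 0.17, for Psma5 at ZT20, so the values of Psmd8 did not come near those of any other subunit gene.

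**Figure D1:**
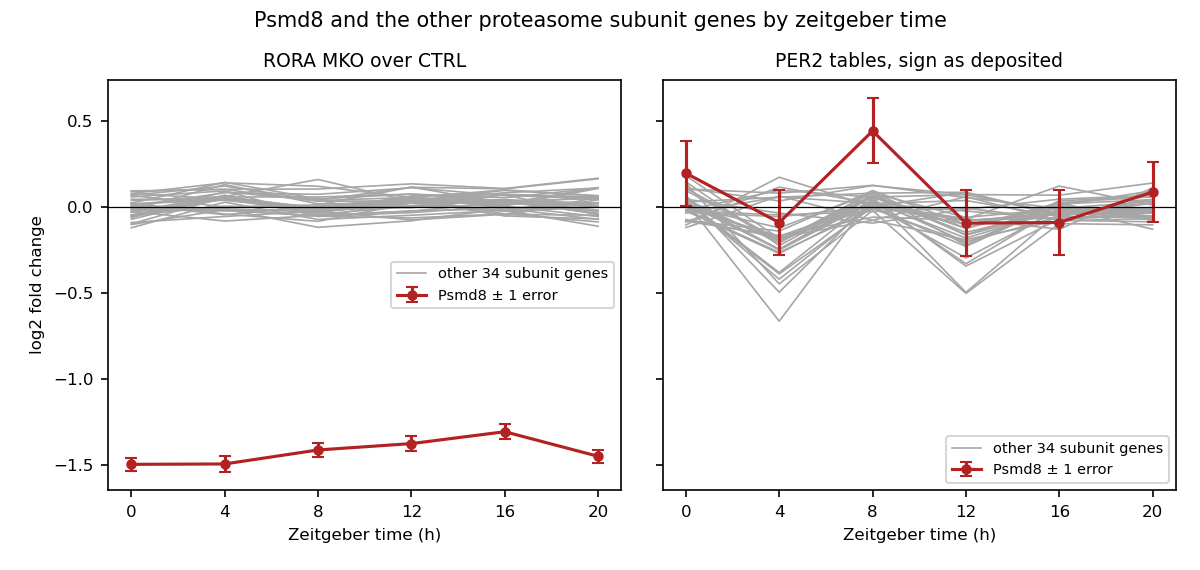
Log2 fold change against zeitgeber time (h) in the RORA set (left) and the PER2 set (right), with Psmd8 in red and each of the other 34 subunit genes as a grey line; bars on Psmd8 are 1 error, deposited for RORA and derived from the deposited likelihood ratio for PER2. Psmd8 lies between -1.50 and -1.31 at all 6 ZT in RORA MKO, below every other subunit gene, and crosses 0 in the PER2 set.

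Psmd8 was called down at all 6 ZT in RORA MKO, as 1 of 35 subunit genes, beside 4.7% of all genes. By the authors' deposited p-value it ranked first among the 14253 genes at ZT0, ZT4, ZT8, ZT12 and ZT20, and ranked 2 at ZT16. At ZT0 its deposited p was exactly 0. By the size of its mean it was the gene with rank 54 from the lowest. It was also abundant, with a mean normalized count of 1322, and the only other gene with as large a change in either direction at that level or above was Ighm, the immunoglobulin mu heavy chain. Cochran's Q did not call a change with ZT in the effect on Psmd8 (adjusted p 0.0726), though Q on z values and a 24 h cosine each did. Q on z values compares z from the deposited p, limited to 37.0, and not the fold changes. By itself it cannot show that the fold change differed between ZT. The cosine was fitted to the fold changes with their deposited errors, so the tests of the fold change were divided. No stretch of at least 200 bases at 95% identity or more was found for Psmd8 in another annotated transcript, and 0 exons of other genes overlapped it, so its reads are not shared with a copy in this annotation.

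The stretch upstream of the Psmd8 start is shown because this gene carries the main difference, with those of Psmc4 and Psmb6, which rose slightly, for comparison. Each is the 250 bases before the RefSeq transcript start, 5′ to 3′ on the gene's strand, in build GRCm38.p6: chr7:29180674-29180923 (minus strand) for Psmd8, chr7:28050093-28050342 (minus strand) for Psmc4 and chr11:70525107-70525356 (plus strand) for Psmb6. Capitals mark matches, on either strand, to the ROR half-site letters AGGTCA, the core letters of the antioxidant response element TGANNNNGC, which factors of the NRF1 and NRF2 family bind, or the CCAAT box.
Psmd8: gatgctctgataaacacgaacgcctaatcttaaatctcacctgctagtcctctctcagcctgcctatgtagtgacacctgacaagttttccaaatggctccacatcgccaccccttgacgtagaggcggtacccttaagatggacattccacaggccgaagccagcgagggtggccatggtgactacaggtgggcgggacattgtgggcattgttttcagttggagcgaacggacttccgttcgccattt
Psmc4: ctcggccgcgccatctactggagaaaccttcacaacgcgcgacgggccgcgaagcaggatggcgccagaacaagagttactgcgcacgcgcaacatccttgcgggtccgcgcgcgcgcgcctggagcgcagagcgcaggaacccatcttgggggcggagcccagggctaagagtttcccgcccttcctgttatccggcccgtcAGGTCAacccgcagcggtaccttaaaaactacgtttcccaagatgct
Psmb6: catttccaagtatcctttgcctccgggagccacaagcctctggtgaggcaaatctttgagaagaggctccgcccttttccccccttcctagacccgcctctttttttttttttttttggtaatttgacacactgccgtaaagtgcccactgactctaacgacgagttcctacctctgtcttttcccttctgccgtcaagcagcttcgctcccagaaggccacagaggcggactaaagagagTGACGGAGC

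The Psmd8 window held 0 matches to these 3 motifs, the Psmc4 window 1 match to AGGTCA and the Psmb6 window 1 match to TGANNNNGC in its last 9 bases. Upstream windows were found for 29 of the 35 subunit genes. AGGTCA was in the windows of 9 of these 29 genes (31%), and in those of 15.8% of all 27025 genes with a window. The longer ROR element letters TNGGTCA were in 13.8% of the subunit genes and 10.5% of all genes. TGANNNNGC was in 37.9% of the subunit genes and 38.7% of all genes, and CCAAT in 37.9% and 37.5%. The 9 genes with AGGTCA did not share a direction in RORA MKO: the mean of Psmc4 rose, those of Psma3, Psma6 and Psma7 fell, and those of Psmb10, Psmc2, Psmc5, Psmd2 and Psmd6 did not pass. The circadian letters were rare upstream of subunit genes as of other genes, with the E-box CACGTG in 10.3% against 6.86% and the D-box TTATGNAA in 0% against 3.63%. A match of letters is a description of the sequence and not a binding site.

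Most genes near Psmd8 on its chromosome did not fall with it. Among the 20 nearest measured genes on each side, the mean over ZT rose for 4, fell for 8 and did not pass for 28. Of all genes, 18.9% rose and 19.3% fell. The median of these neighbours was 0.02. Ryr1, the calcium release channel of the sarcoplasmic reticulum and 6 genes away, fell by 0.24 ± 0.06. The 2 neighbours whose means passed with a size of at least 0.5 went opposite ways and were named after their values were seen. They were the protease inhibitor gene Spint2, at 0.80 ± 0.26 with a mean normalized count of 24.7, and the chromatin factor gene Dpf1, at -2.08 ± 0.21 with a mean normalized count of 9.10. The genes directly on either side of Psmd8, Ggn (0.14 ± 0.16) and Catsperg1 (0.07 ± 0.08), did not pass.

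**Figure D2:**
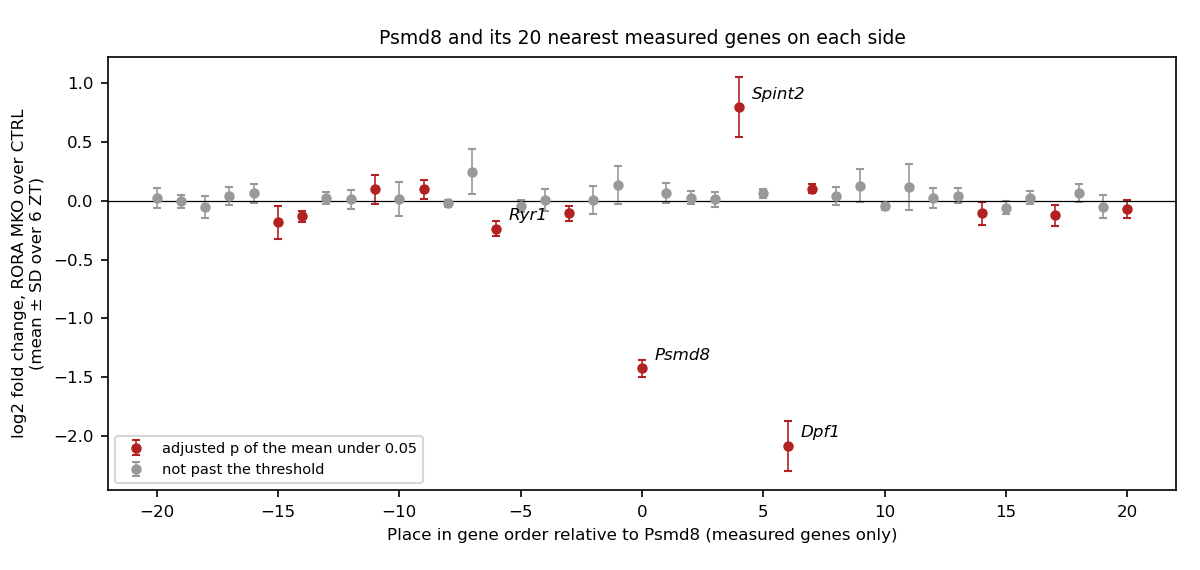
Mean log2 fold change in RORA MKO over CTRL (points, with bars of 1 SD over 6 ZT) of Psmd8 and its 20 nearest measured genes on each side, by place in RefSeq gene order; red points passed an adjusted p of 0.05. Psmd8 at -1.42 and Dpf1 at -2.08 lie far below 0 and Spint2 at 0.80 above it, while the other genes that passed lie between -0.24 and 0.10.

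Beyond Psmd8, the subunit genes differed little between RORA MKO and CTRL. Over the 6 ZT the inverse-variance mean passed an adjusted p of 0.05 (Benjamini-Hochberg over all genes) in the positive direction for 11 of the 35 genes, beside 18.9% of all genes, and in the negative direction for 5, Psmd8 among them, beside 19.3%. The other 19 did not pass. The median of the 35 means was 0.01, and that of all genes 0.00. At single ZT, the authors' deposited tables called 2 up and 6 down at ZT0 (backgrounds 14.8% and 13.4%), 8 up and 2 down at ZT4 (14.8% and 14.2%) and 2 up and 2 down at ZT8 (13.7% and 14.1%). They called 3 up and 2 down at ZT12 (11% and 11.1%), 5 up and 1 down at ZT16 (10.4% and 10.3%) and 3 up and 4 down at ZT20 (16.6% and 15.6%). In all, 20 of the 35 were called at 1 ZT or more, beside 58.1% of all genes. With limma, whose error is the spread of the 6 ZT values, 6 of the 16 means passed: Psmd8, Psma5, Psmb6, Psmc4, Psmd3 and Psmd9. By limma 11 of the 35 had an unadjusted p under 0.05, beside 41.6% of all genes. With a smooth trend of transcript length and GC content removed at each ZT, the 23 upward and 17 downward calls became 29 and 8. The test changed as well, from the deposited p to the fold change over its deposited error, so these differences cannot be credited to the trend alone. Over all genes it called from 12.1% (ZT16) to 20.5% (ZT20), where the deposited adjusted p called 20.7% and 32.2%. Of the 17 downward calls 7 remained, Psmd8 at 6 ZT and Psmc1 at ZT8, and Psmd13 at ZT20 was added. Of the 23 upward calls 12 remained and 17 were added, among them Psma1, Psma2 and Psmd12 at 3 or more ZT each.

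**Figure D3:**
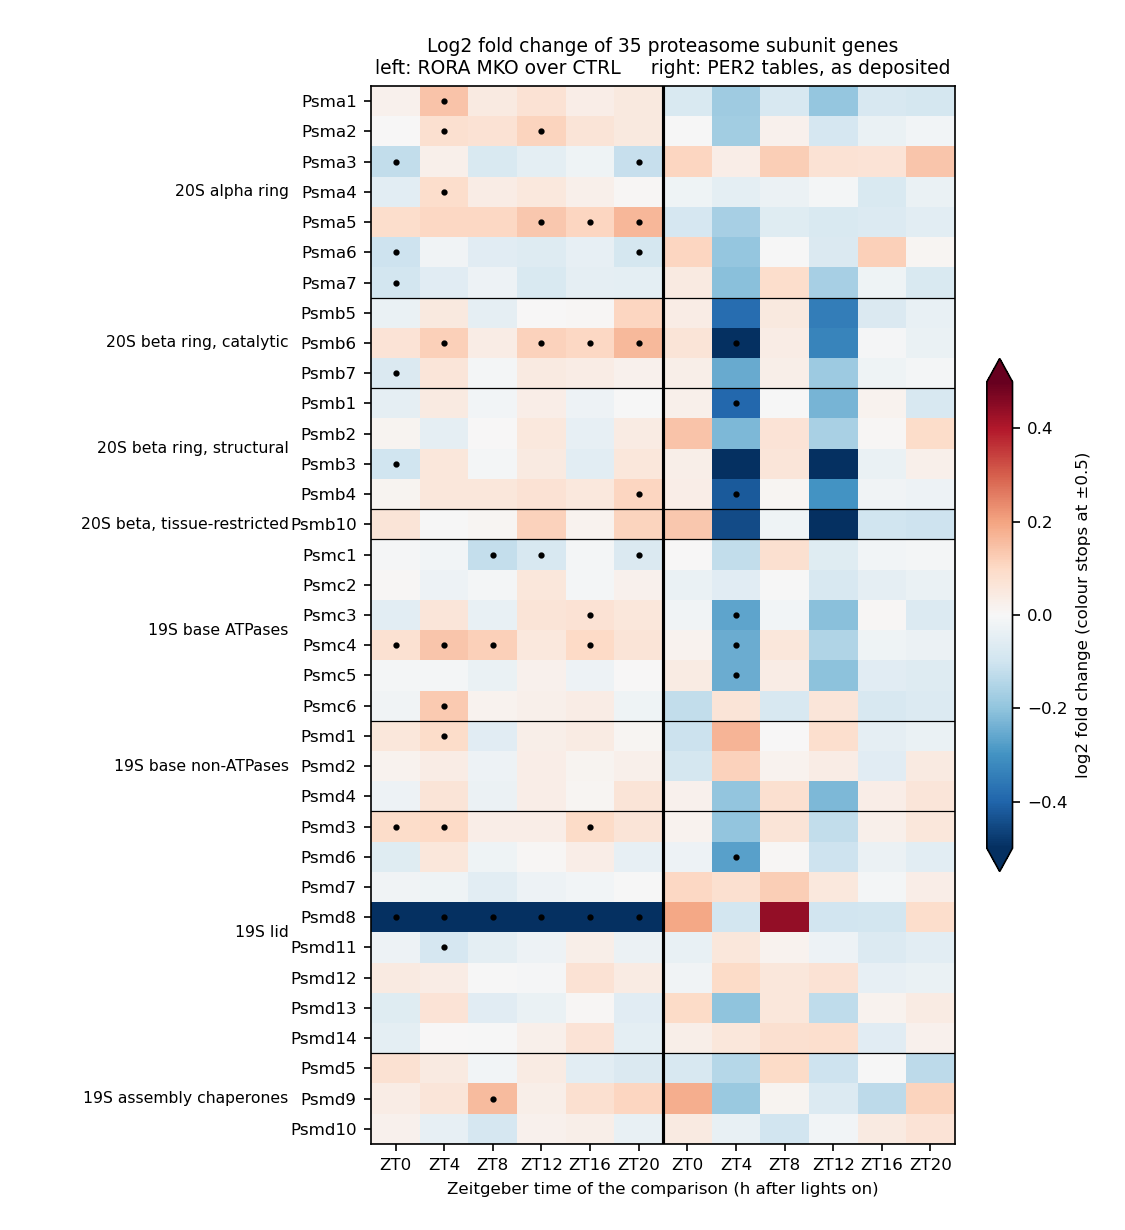
Log2 fold changes of the 35 subunit genes, grouped by role, at each ZT in the RORA set (left) and the PER2 set (right, sign as deposited); colour stops at ±0.5 and black dots mark a deposited adjusted p under 0.05. The row of Psmd8 is the only one called at all 6 ZT, and the 7 PER2 calls are all negative and all at ZT4.

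In the alpha ring of the core, the genes split by direction in RORA MKO by the inverse-variance mean. The means of Psma1, Psma2 and Psma5 rose, those of Psma3, Psma6 and Psma7 fell, and that of Psma4 did not pass. By limma only Psma5 of the ring passed. With the length and GC trend removed, the single-ZT downward calls of Psma3, Psma6 and Psma7 did not remain, so the split depends on the test. Psma5 had the largest mean of the 34 genes, 0.12 ± 0.03 (adjusted p 3.77e-09, inverse-variance mean). In the authors' deposited tables it was at 0.09, 0.10, 0.10, 0.13, 0.11 and 0.17 at ZT0 to ZT20, positive at each and called at ZT12, ZT16 and ZT20. Psma6 was negative at all 6 ZT, between -0.10 and -0.02, with a mean of -0.06 ± 0.03 (adjusted p 1.74e-08), and was called at ZT0 and ZT20. Psma3 stood at -0.06 ± 0.06 in RORA MKO, and with the length and GC trend removed its mean was 0.00 (adjusted p 0.941). Reads of Psma2, Psma3, Psma4 and Psma5 may be shared with processed pseudogenes, and their values are less certain. Each of these 4 genes had at least 1 copy of 95% identity or more. The same holds outside the alpha ring for Psmb3, Psmb5, Psmc1, Psmd2 and Psmd11.

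Of the 3 catalytic beta subunits, Psmb6 rose in RORA MKO and the other 2 did not pass as a mean. Psmb6 carries the caspase-like site. In the authors' deposited tables it stood at 0.07, 0.12, 0.04, 0.11, 0.10 and 0.16 at ZT0 to ZT20, was positive at each and was called at 4. Its mean was 0.10 ± 0.04 (adjusted p 1.29e-11, inverse-variance mean). Psmb5, which carries the chymotrypsin-like site, had a mean of 0.01 ± 0.06 (adjusted p 0.692), and Psmb7, which carries the trypsin-like site, 0.01 ± 0.05 (adjusted p 0.445). Psmb10, the immunoproteasome counterpart of Psmb7, stood at 0.05 ± 0.05 (adjusted p 0.218). Of the structural beta genes, the mean of Psmb4 rose (0.06 ± 0.03), and those of Psmb1, Psmb2 and Psmb3 did not pass.

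In the base of the 19S particle, 2 of 6 ATPase genes rose in RORA MKO, 1 fell and 3 did not pass. Psmc4 was positive at all 6 ZT in the authors' deposited tables (0.08, 0.14, 0.12, 0.05, 0.10 and 0.06 at ZT0 to ZT20) and was called at 4. Its mean was 0.09 ± 0.03 (adjusted p 9.75e-09, inverse-variance mean). Psmc1 was negative at all 6 ZT, at -0.05 ± 0.05. Psmc3 passed at 0.03 ± 0.06 (adjusted p 0.0401), but not when ZT4, ZT12, ZT16 or ZT20 was left out (adjusted p 0.191 to 0.273). Of the 3 other base genes, Psmd1 passed at 0.03 ± 0.05 (adjusted p 0.0253). It no longer did without ZT0, ZT4 or ZT16, with adjusted p values of 0.144, 0.298 and 0.074.

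Of the 8 lid genes, Psmd3 and Psmd12 rose in RORA MKO, Psmd8 fell and 5 did not pass. Psmd3 stood at 0.09, 0.10, 0.03, 0.04, 0.10 and 0.06 at ZT0 to ZT20 in the authors' deposited tables, with a mean of 0.07 ± 0.03 (adjusted p 5.52e-06). Psmd12 had a mean of 0.03 ± 0.03 and was called at 0 single ZT. Psmd14, the deubiquitinase of the lid, was at 0.00 ± 0.05 (adjusted p 0.959), and Psmd7, its partner in the lid, at -0.02 ± 0.02 (adjusted p 0.184). Of the 3 assembly chaperones, the mean of Psmd9 rose (0.08 ± 0.05), and Psmd5 and Psmd10 did not pass.

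The RORA effect changed with ZT for 2 of the 35 genes by Cochran's Q, beside 11% of all genes. Psmb7 was called down at ZT0 (-0.07) in the authors' deposited tables and lay between -0.01 and 0.06 at the other ZT (adjusted p of Q 0.0198). Psmc3 was at -0.05 at ZT0 and -0.04 at ZT8, and between 0.06 and 0.07 at ZT4, ZT12, ZT16 and ZT20 (adjusted p of Q 0.00948). Each ZT has its own libraries, so time of day and the libraries sampled cannot be told apart. Without ZT0 the count was 0, with 1 gene left without ZT4. Both genes overlap an exon of a gene on the opposite strand, Psmb7 that of Nek6 (-0.70 in RORA MKO) and Psmc3 that of Slc39a13 (-0.08). Whether the authors' counting used strand is not given in the sources used here, and the part of these neighbours was not tested.

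In the PER2 set the subunit genes were called at ZT4 alone. The authors' deposited table for ZT4 called 7 of the 35 genes, all negative, beside 6.76% of all genes in that direction, and 0 positive, beside 5.49%. They were the core genes Psmb1 (-0.39), Psmb4 (-0.42) and Psmb6 (-0.50), the ATPase genes Psmc3 (-0.27), Psmc4 (-0.25) and Psmc5 (-0.25), and the lid gene Psmd6 (-0.27). The 35 genes had a median of -0.18 at ZT4. At ZT12 it was -0.10, and elsewhere it stayed within -0.03 to 0.03. At ZT12, 0 of the 35 were called (background 3.34%) and 8 had an unadjusted p under 0.05, beside 17.4% of all genes. At ZT0, ZT8, ZT16 and ZT20 the deposited adjusted p also called 0 (backgrounds 2.7%, 1.78%, 0.811% and 1.52%), with 0, 2, 0 and 0 genes at an unadjusted p under 0.05, which 11.7%, 10.9%, 6.32% and 8.85% of all genes had. Psmb3 had the lowest value of all, -0.67 at ZT4, and was not called there.

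The negative values at ZT4 and ZT12 went with transcript length. Subunit transcripts are short, with a median of 1581 bases beside 3160 for all genes. Over the 9287 genes left when the lowest 25% by level were set aside, Spearman's rho of the PER2 fold change with length was 0.59 at ZT4 and 0.51 at ZT12. Over the 35 subunit genes it was 0.60 and 0.52. At ZT0 the sign was the opposite (-0.28 over all genes and -0.36 over the 35), and at ZT8, ZT16 and ZT20 the values lay between -0.06 and 0.11. GC content went with the fold change as well, with a rho over the 35 genes of -0.60 at ZT4 and -0.66 at ZT12, and over all genes of -0.39 and -0.50. These correlations are across genes that share the same libraries, and genes are not independent replicates. Psmb3, the shortest at 766 bases, had the lowest value at ZT4, and Psmd1, at 3112 bases, the highest (0.17). The longest, Psmd5 at 4397 bases, did not follow length, at -0.14 at ZT4 and -0.11 at ZT12. With a smooth trend of length and GC content removed, the median of the 35 genes at ZT4 went from -0.18 to 0.03. Of the 7 calls 0 were then left. The genes called at ZT4 were Psmc6, Psmd7 (both positive) and Psmd5 (negative), beside 7.73% of all genes called. Hemoglobin and other red blood cell genes were lowest at these ZT too: 6 of 6 measured markers had negative PER2 means, and the list median was -1.32 at ZT4 and -0.99 at ZT12. Their part in the subunit values was not tested.

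**Figure D4:**
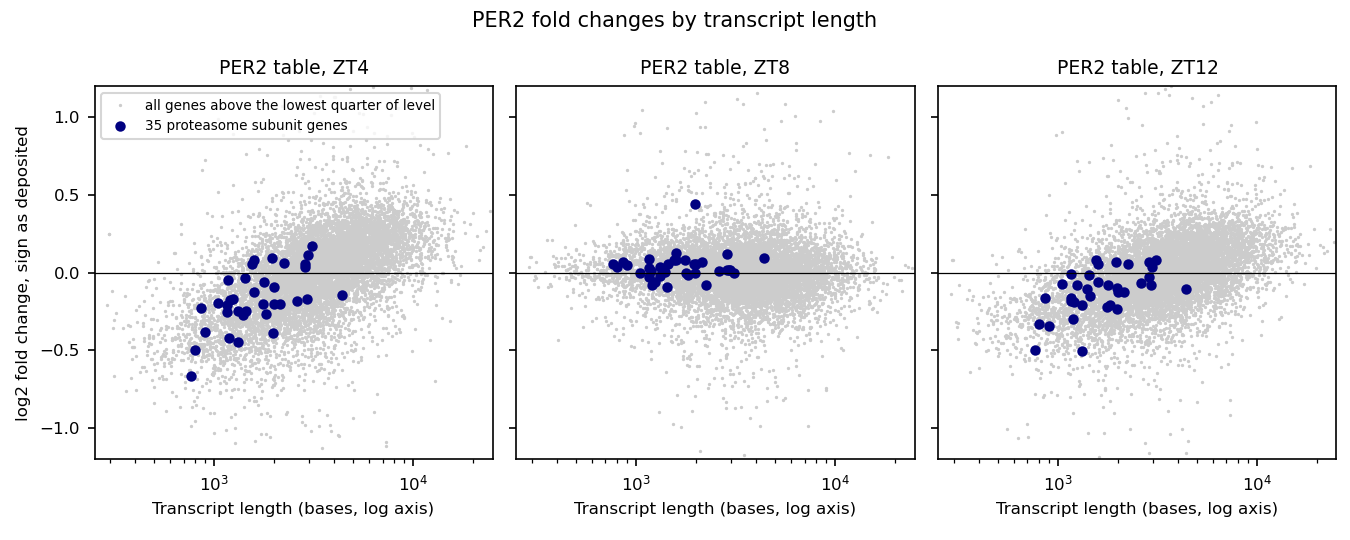
Deposited PER2 log2 fold change against transcript length (bases, log axis) at ZT4, ZT8 and ZT12, with all genes but the lowest 25% by level in grey and the 35 subunit genes in blue (grey points beyond the axis are not drawn). The cloud of all genes and the subunit genes climb with length at ZT4 (rho 0.59 and 0.60) and ZT12 (0.51 and 0.52), and lie flat at ZT8 (-0.06 and 0.10).

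As a mean over the 6 ZT, 1 subunit gene was positive in the PER2 set (Psma3, beside 10.9% of all genes) and 3 were negative (Psma1, Psmc3 and Psmd6, beside 10.6%), by Stouffer's sum with Benjamini-Hochberg adjustment. Psma1, a gene of the alpha ring, stood at -0.07, -0.18, -0.08, -0.19, -0.08 and -0.09 at ZT0 to ZT20 in the authors' deposited tables. It was negative at each ZT and called at 0, with a mean of -0.12 ± 0.05 (adjusted p 0.00455). Without ZT4 and ZT12 together its adjusted p was 0.213. Psma3 was positive at each ZT, between 0.03 and 0.14, with a mean of 0.09 ± 0.04 (adjusted p 0.0193), and did not pass without ZT8 or ZT20 (adjusted p 0.0601 and 0.0805). Psmc3 (-0.09 ± 0.12) and Psmd6 (-0.08 ± 0.10) did not pass without ZT4 (adjusted p 0.33 and 0.453), nor without ZT12 (0.217 and 0.0946). Psmc3 also missed the threshold without ZT20 (0.0547). The next in order, Psmd7 (0.06 ± 0.05, adjusted p 0.0597) and Psmc5 (-0.08 ± 0.12, adjusted p 0.061), did not pass. With limma 0 of the 35 means passed, and 3 had an unadjusted p under 0.05, beside 25.4% of all genes.

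Among the catalytic genes, PER2 means did not pass for Psmb5 (-0.13 ± 0.19), Psmb6 (-0.13 ± 0.23), Psmb7 (-0.07 ± 0.12) or Psmb10 (-0.17 ± 0.25). All 4 had their lowest values at ZT4 and ZT12. Cochran's Q called 0 of the 35 genes for a change with ZT, beside 0.0463% of all genes, and 0 had an unadjusted p under 0.05, beside 8.08% of all genes. The smallest adjusted p values of Q were 0.619 for Psmc5, 0.632 for Psmd6 and 0.666 for Psmc3. A 24 h cosine and a Q computed on z values gave 0 as well.

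Psmd8 did not show in the PER2 set the fall seen in RORA MKO. In the authors' deposited tables it stood at 0.20, -0.09, 0.44, -0.10, -0.09 and 0.09 at ZT0 to ZT20, with signs divided and 0 calls. Its mean was 0.07 ± 0.22 (adjusted p 0.539, Stouffer's sum). The weighted mean of 0.08 had a 95% interval from -0.07 to 0.23, which does not reach the size of the RORA change under either reading of the PER2 sign. The value of 0.44 at ZT8, the highest of the 35 genes there, had a deposited adjusted p of 0.306.

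The weighted means of the 2 knockouts differed for 12 of the 35 genes with the PER2 sign as deposited, beside 40% of the 11429 shared genes, and for 2 with it reversed, beside 19.2%. Psmd8 was the only subunit gene that passed under both readings, which 13.3% of shared genes did. Its difference was -1.50 as deposited (adjusted p 8.62e-80) and -1.35 with the PER2 sign reversed (adjusted p 4.37e-64). The other gene past the threshold with the sign reversed was Psmd6. Of the 12 as deposited, RORA was above PER2 for Psma1, Psma2, Psma5, Psmb4, Psmb6, Psmb10, Psmc3, Psmc4 and Psmd3, and below it for Psma3, Psmd7 and Psmd8. Apart from Psmd8, the sizes of these 12 differences ran from 0.08 (Psmd7) to 0.22 (Psmb6). The count fell to 6 without ZT4 and to 6 without ZT12.

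Apart from a few low genes, subunit genes ran from 251 (Psma2) to 1518 (Psmb7) counts per kb in RORA. Psmb7 had the highest level in both sets, at a mean normalized count of 1518 per kb in RORA and 145 CPM per kb in PER2. Psmb6 came second in both, at 1292 counts per kb in RORA. The 3 chaperone genes and Psmb10 lay lowest, between 46.1 and 73.3 counts per kb in RORA and between 3.49 and 5.19 CPM per kb in PER2. The ATPase genes ran from 544 to 976 counts per kb. Among the catalytic genes Psmb5 was the exception, at 280 counts per kb in RORA but 64.5 CPM per kb in PER2. Relative to the median ratio of the 2 sets, Psmb5 stood at 0.349, Psma3 at 0.556, Psmd8 at 0.600 and Psmb3 at 0.689. Psmb5, Psma3 and Psmb3 have processed pseudogene copies. The 9 subunit genes with such copies had a median relative ratio of 0.806, and the 26 without 1.03, of which Psmd8 was the lowest.

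**Figure D5:**
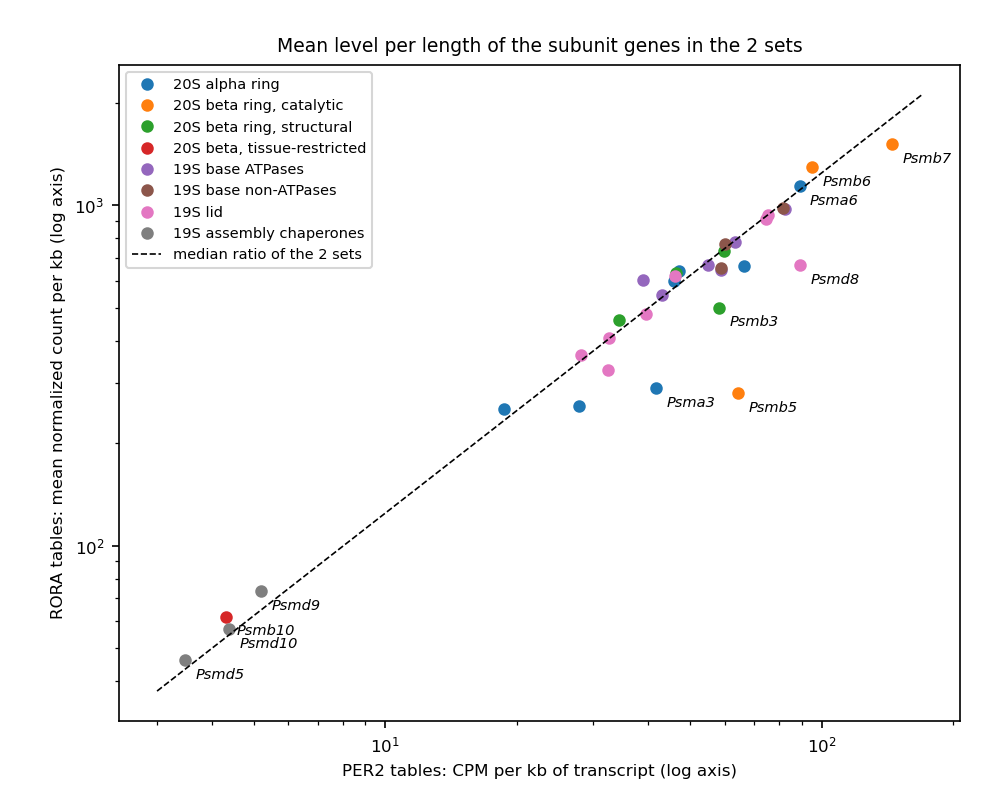
Mean normalized count per kb of transcript in the RORA tables against CPM per kb in the PER2 tables (both log axes), each point a subunit gene coloured by role, with the median ratio of the sets as a dashed line. Psmb7 (1518 and 145) is highest; Psmb5, Psma3, Psmd8 and Psmb3 lie below the line.

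Other genes of the pathway were counted by lists set beside the subunit genes, each gene by its mean over the 6 ZT. By this mean 18.9% of all genes rose and 19.3% fell in RORA MKO. In PER2 10.9% of all genes were positive and 10.6% negative. Among alternative caps of the core, 3 genes changed in RORA MKO. Psme1, an activator subunit induced by interferon, rose by 0.36 ± 0.08 and was called at all 6 ZT, and its partner Psme2 rose by 0.15 ± 0.09. Psme4, which encodes the activator PA200, fell by 0.31 ± 0.13 and was called at 5 ZT. In the PER2 set the deposited signs were the opposite of those in RORA: Psme1 was at -0.19 ± 0.23, Psme2 at -0.14 ± 0.08 and Psme4 at 0.28 ± 0.08, all past Stouffer's sum (adjusted p 7.7e-05, 0.0446 and 2.41e-07). Of 10 other subunits, activators and inhibitors, 3 rose, 1 fell and 6 did not pass in RORA, and in PER2 1 of 9 was positive and 2 negative. Of 7 immunoproteasome genes 2 rose in RORA (Psme1 and Psme2, which this list shares with the last), and in PER2 4 of 6 were negative and 0 positive, with the peptide transporter Tap1 at -0.43 ± 0.29. Macrophage and leukocyte markers had 2 of 12 up in RORA, with a list median of 0.11, and 0 of 10 past the threshold as a mean in PER2, with a list median of -0.12, though Cd74, H2-Aa and H2-Ab1 were each called at 1 ZT in the authors' deposited tables. Their part in the immunoproteasome values was not tested.

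Among factors known to control or assist subunit synthesis, Nfe2l1 fell in RORA MKO. Nfe2l1 encodes NRF1, the transcription factor that induces subunit genes when proteasome activity drops. It stood at -0.10, -0.16, -0.19, -0.13, -0.19 and -0.18 at ZT0 to ZT20 in the authors' deposited tables and was called at each, with a mean of -0.16 ± 0.04. Ddi2, the protease that cleaves NRF1 into its active form, fell by 0.13 ± 0.12, and Ngly1, which removes its glycans, by 0.08 ± 0.08. Of the 8 genes measured in this axis, 3 rose, 4 fell and 1 did not pass. In PER2 Nfe2l1 (0.12 ± 0.10) and Ngly1 (0.13 ± 0.06) were positive, and the other 6 did not pass. Of the 5 assembly chaperones outside the Psm names, 0 passed in RORA, Pomp, the maturation factor of the core, being at -0.02 ± 0.05. In PER2 Psmg2 (-0.14 ± 0.11) and Pomp (-0.10 ± 0.03) were negative.

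Genes that supply ubiquitin and substrates moved in both directions in RORA MKO, where 18.9% of all genes rose and 19.3% fell. Of 11 genes of ubiquitin and its activation, 3 rose and 4 fell: the polyubiquitin gene Ubb rose by 0.18 ± 0.08, and the conjugating enzyme gene Ube2d3 fell by 0.13 ± 0.05. Of 11 genes of the VCP segregase and shuttle factors, 6 rose and 2 fell, with the VCP cofactor Nploc4 at 0.16 ± 0.05, Zfand5 at 0.13 ± 0.05 and the shuttle Ubqln4 at 0.11 ± 0.03. Of 8 ubiquitin ligases linked to muscle atrophy, 4 rose and 2 fell. Fbxo32 (atrogin-1) fell by 0.55 ± 0.31, the largest change of these lists apart from Psmd8, while Fbxo31 (0.18 ± 0.08) and Fbxo21 (0.23 ± 0.13) rose. Of 17 chaperones, 3 rose and 8 fell, with Hsph1 at -0.25 ± 0.12, the co-chaperone Bag3 at 0.17 ± 0.06 and the chaperonin subunit Cct5 at 0.07 ± 0.04. The list medians lay between -0.03 (chaperones) and 0.09 (immunoproteasome) beside 0.00 for all genes.

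In the PER2 set 10.9% of all genes were positive as a mean and 10.6% negative. Of 12 ubiquitin genes 2 were positive, Ube2d3 (0.09 ± 0.04) and Ube2d2a (0.08 ± 0.04). Of 11 genes of the VCP list 1 was positive, Rad23b (0.11 ± 0.05). For the 8 atrophy ligases the count was 0, Fbxo32 being at -0.20 ± 0.20 (adjusted p 0.0524, Stouffer's sum). Of 17 chaperones 3 were positive, Hsp90aa1 (0.18 ± 0.12) and Hsph1 (0.24 ± 0.16) among them, and 1 was negative. Among markers of other cell types, 9 of 10 endothelial genes rose in RORA, with a list median of 0.16, a size above the mean of every rising subunit gene, and 4 of 10 were negative in PER2, with a list median of -0.10. As a mean, fibroblast genes had 0 up and 2 down of 8 in RORA, and white adipocyte and Schwann cell genes 0 of 7 each. For the last 2 lists the mean joins opposite values. White adipocyte genes had a median of -0.73 (ZT0) but 0.44 (ZT20). Of these 7 genes, 5 were called down at ZT0 and 3 at ZT4. Schwann cell genes had medians of -0.21 (ZT0) and -0.31 (ZT4) but 0.67 (ZT20). Here 4 of 7 were called down at ZT0 and 5 at ZT4. None of the fibroblast, white adipocyte and Schwann cell lists had a gene past the threshold as a mean in PER2. Of 5 red blood cell genes 1 rose and 1 fell in RORA, and of 12 muscle genes 3 rose and 5 fell in RORA and 2 were negative in PER2. Their part in the subunit values was not tested.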

How the data were processed

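Stranded mRNA libraries from muscle were read on an Illumina sequencer, per the labels' protocols. Tools listed in the submitters' processing notes, without roles, are STAR, Trimmomatic, DESeq2, MultiQC, bcl2fastq (2.20.0.422) and R (4.1). The same notes list 2 builds, mm9 and GRCm39. The sources used here do not give the read counter or its use of strand.

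The 12 tables hold the authors' comparisons, 1 per knockout and ZT. Per the file headers, each RORA table has the log2 fold change and its error, the raw and adjusted p-value, and the level of each gene as a signal (mean normalized count). As the authors named these tables, the ratio is that of the knockout to wild type and genes had to reach 10 reads in 3 samples. The median ratio of RORA fold over error to the z of its p was 0.814, as with shrunken values, so sizes may be understated. Each PER2 table holds, per the file headers, the raw and adjusted p-value, the likelihood ratio as a score, the mean level in log2 CPM and a log2 fold change. The PER2 error was derived from the deposited likelihood ratio score as the size of the fold change over its root. Library values were not analysed here, so depth is unknown and precision is that of the authors' errors and tests.

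RORA values were combined over ZT by an inverse-variance mean, PER2 values by Stouffer's sum of z values, with two-sided normal p. A deposited p of 0 was read as a z of 37.0. Cochran's Q (5 degrees of freedom) tested whether the effect changed over ZT, and the knockouts were compared by their weighted means. These calculations take the 6 comparisons of a set as independent, which was not tested. Adjusted p values of these tests are Benjamini-Hochberg values over every gene tested. Printed means are plain means ± SD over the 6 ZT. A count model was not fitted, since that needs counts per library. Genes without a deposited symbol were named through a gene table (888 of the RORA genes). Transcript length, GC content, copies and overlaps came from GENCODE M21, and upstream sequences and gene order from RefSeq, GRCm38.p6. Length and GC content are those of the longest protein-coding transcript of each gene, or otherwise of its longest transcript. Levels per kb and the length trend depend on that choice.

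The genes given in full are the catalytic genes, the 6 members with the smallest adjusted p of the mean and the 3 of the change with ZT in each knockout. From each pathway list they are up to 3 genes by RORA and 2 by PER2, with the targeted genes. Others are named to complete a count. For 1 gene that the rule selects, the result is not reported here. The members and lists were chosen with earlier results of these data known. Alternatives were other thresholds, leaving out each ZT, limma, centring, a length and GC trend, a level filter and other combinations. The scripts were tested on simulated data. Software was Python 3.11.15, NumPy 2.4.6, pandas 2.3.3, SciPy 1.17.1, R 4.3.3, limma 3.58.1 and matplotlib 3.10.9.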

Additional observations from a re-analysis of the deposited data

Results flagged for a closer look

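The effect of the RORA knockout on Psmb7 and on Psmc3 differed between ZT by Cochran's Q, with adjusted p values of 0.0198 for Psmb7 and 0.00948 for Psmc3. These were 2 of the 35 genes, beside 11% of all genes, and the count ran from 0 to 3 when a ZT was left out. Both genes overlap an exon of a gene on the opposite strand. Psmb7 was negative at ZT0 (-0.07) and ZT8 (-0.01) and positive at the other 4 ZT. Psmc3 was negative at the same 2 times and positive at the others. Their sizes did not exceed 0.07.

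Psmd8 differed between the knockouts, with a RORA minus PER2 difference of weighted means of -1.50 as deposited, and passed under both readings of the PER2 sign.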

How the results depend on the processing

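The fall of Psmd8 in RORA MKO kept its direction and passed under each alternative run, from -1.45 to -1.41 when a ZT was left out, and its difference from PER2 ran from -1.56 to -1.43. Counts of subunit genes were less stable. The 40 RORA calls at single ZT (23 up, 17 down) became 24 (12 up) at an adjusted p under 0.01. With a log2 fold change of at least 0.2 they became 6 (0 up, 6 down), all of Psmd8. With the length and GC trend removed, added after seeing the data, 29 were up and 8 down, of which 12 and 7 were among the deposited calls. Here the test changed too, to the fold change over its deposited error, and it called 12.1% to 20.5% of all genes at a ZT. The RORA mean called 16 genes, 14 to 16 when a ZT was left out, and 6 by limma (5 up, 1 down). With the trend removed, the RORA mean of Psma3 changed sign to 0.00 (0.0033). The 2 genes whose RORA effect changed with ZT became 4 by Q on z values and 1 (Psmd8) by a cosine of 24 h, and 0 to 3 when a ZT was left out.

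The 7 PER2 calls, all negative, became 1 negative at an adjusted p under 0.01, and 4 (2 positive, 2 negative) with the trend removed, added after seeing the data. With the trend removed, 1.78% (ZT16) to 7.73% (ZT4) of all genes were called at a ZT. The PER2 mean called 4 genes, and 2 to 6 when a ZT was left out (0 to 2 positive, 1 to 5 negative). By limma it called 0 (0 positive, 0 negative), with 3 at an unadjusted p under 0.05 (25.4% of all genes). Centring each ZT on its median gave 2 positive and 1 negative, and removing the trend gave 4 positive. Without ZT4 and ZT12 together, added after seeing the data, 1 was called (0 negative). The 12 genes that differed between the knockouts became 2 with the PER2 sign reversed, 5 by limma, and 6 to 15 when a ZT was left out. Apart from the stricter limits, the cause was not tested. No paired analysis was possible because the tables hold no values per library. With 3 or 4 libraries per group and unknown depth, absence of a call does not show absence of a change.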

Other observations

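The level of Psmd8 can be read against the PER2 set through the mean levels. Its mean normalized count in the RORA tables, per CPM in the PER2 tables, was 0.600 of the median of the 35 subunit genes. A mean over equal numbers of CTRL and MKO libraries, with MKO at 37.2% of control, would be 68.6% of the control level. The RORA set holds 18 libraries of each genotype, and the deposited mean count is identical in the 6 RORA tables. Relative to the same median, Psmb5 (0.349) and Psma3 (0.556) lay lower than Psmd8, with mean RORA log2 fold changes of 0.01 and -0.06. Psmc6, at 1.24, was the highest of the 35 on this measure. The ratio joins normalized counts of 1 set with CPM of another and varied from 0.349 to 1.24. It therefore cannot test the fall of Psmd8.

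The GC content of the subunit transcripts went with their RORA fold change at ZT20 (Spearman's rho 0.53 over 35 genes), and with that of the 10529 genes left when the lowest 25% by level were set aside (0.36). At the other 5 ZT the values over the 35 genes were between 0.04 and 0.15. These are descriptions across genes of the same libraries.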
